A study of Mus musculus with 10 samples.

Results

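The genes described here encode conjugating (phase II) enzymes of 3 families: the UDP-glucuronosyltransferases (UGT), the glutathione S-transferases (GST) and the sulfotransferases (SULT). They were chosen by symbol, as all genes whose name begins with Ugt1, Ugt2, Ugt3, a letter-classed Gst (a, k, m, o, p or t) or Sult followed by a digit. This gave 58 of the 24062 genes counted, of which 20 were UGT, 20 GST and 18 SULT genes. Their RNA was compared in jejunum of C57BL/6 mice at postnatal day 5 (P5), with 5 libraries of wild-type (WT) littermates and 5 of KSR23 mice. KSR23 mice carry a cassette for both subunits of interleukin-23 (IL-23) in the ROSA26 locus, behind a floxed STOP sequence that is removed by a cre recombinase under the keratin 14 (K14) promoter. That promoter is active in keratinocytes and other stratified epithelia, so the jejunal epithelium is not the intended source of the cytokine. The labels name no treatment for either group.

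Conjugation makes lipophilic compounds water-soluble. UGT enzymes sit in the endoplasmic reticulum and attach glucuronic acid from UDP-glucuronic acid, SULT enzymes attach sulfate from the donor PAPS in the cytosol, and GST enzymes join glutathione to reactive compounds. Enterocytes of the small intestine use all of these routes on bilirubin, bile acids, steroids, hormones and dietary compounds before they enter the blood, and the families are under the control of nuclear receptors, of the antioxidant regulator NRF2 and of the aryl hydrocarbon receptor.

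Totals per library ran from 25477722 to 60948534 counts. The floor of detection, taken as 3 counts, was worth 0.0492 to 0.118 counts per 1000000 assigned reads. CPM of genes are counts per 1000000 assigned reads after each total was multiplied by its TMM normalization factor. These factors, 0.797 to 1.15, were left out of the floor. Il12b, which encodes the p40 subunit in the cassette, was higher in KSR23 jejunum (log2 fold change 2.32, adjusted p = 0.00364), whereas Il23a, for p19, gave 0.95 (adjusted p = 0.270). Summed CPM of 10 enterocyte markers overlapped between the groups, at 11335 to 18285 in WT and 10041 to 16616 in KSR23 libraries, and those of 7 mesenchymal and 6 smooth muscle markers overlapped as well. The enterocyte sum joins members that went opposite ways. Fabp2, its most abundant member, fell from 9964 to 4366 CPM on average, while Cdh17 rose from 812 to 2283, Krt20 from 359 to 1674 and Myo1a from 134 to 526 CPM. Without Fabp2 the other 9 summed to 3577 to 5655 CPM in WT and 7430.5 to 10824 CPM in KSR23. In bulk tissue, fewer cells of a type and less RNA per cell cannot be told apart. Replicates 4 and 5 held the highest or lowest value of their group at only 8.54% to 18.4% of 9737 well-counted genes, against 45.7% to 75.6% for replicates 1 to 3, so counts of changed genes are also given for replicates 1 to 3. The study describes its jejunum libraries as biological replicates, whereas the labels do not say that replicates 4 and 5 are separate animals. If they are not, n = 5 and the p-values of 5 against 5 libraries overstate the replication. Counts of Uty, Ddx3y, Kdm5d and Eif2s3y, which are Y-linked, summed to 492 to 6347 counts in the 5 WT libraries, to 9035 and 4330 in KSR23 replicates 1 and 4, and to 9, 1 and 1 in KSR23 replicates 2, 3 and 5.

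Which phase II genes differed in KSR23 jejunum? Of the 58 genes, 13 had no count in any library, another 6 had at most 3 counts in a library, and 39 passed the minimum of 5 counts in at least 1 library and were tested. The 19 genes below the minimum were Gstt4, Sult1e1, Sult3a1, the 7 Sult2a genes, Ugt1a5, Ugt1a10, Ugt2a1, Ugt2a2, Ugt2b1, Ugt2b37, Ugt2b38, Ugt3a1 and Ugt3a2, which includes the oestrogen sulfotransferase Sult1e1 and the bile acid and steroid sulfotransferases of the Sult2a cluster. By edgeR's likelihood ratio test, 13 of the 39 genes were lower in KSR23 (33.3%, where 8.76% of all 17632 genes tested were lower) and 2 were higher (5.13%, where 9.74% of all genes were higher). Together 15 genes changed (38.5%, against 18.5% of all genes). The stricter quasi-likelihood test called 14 of these 15 (35.9% of the 39 genes, against 15.4% of all genes) and left out Sult2b1. The median log2 fold change of the 39 genes was -0.74, while that of all genes was 0.03. One of the 39, Sult1c1, passed the minimum only through WT replicate 2, which had 14 counts while the other 9 libraries had none. With replicates 1 to 3 alone, 3 genes were lower and none was higher by the likelihood ratio test (3.36% of all genes were called in either direction), and only Sult1c2 was called by the quasi-likelihood test (0.812% of all genes). For 14 genes the CPM ranges of WT and KSR23 were apart, all lower in KSR23 (6.99% of all genes were lower and 7.41% higher without overlap). Those 14 were 12 of the 13 genes called lower, together with Gsta2 and Gstm6, which did not pass the test.

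Promoters of 4 genes are shown because their genes carry the main contrasts: Ugt1a1 and Ugt1a7c, which are transcribed from separate first exons of the same locus and whose ratio of counts differed between the groups, and Sult1d1 and Gstm5, the SULT and GST genes with large decreases at high counts. Each runs 5′ to 3′ on the gene's strand, from 250 bases before to 50 bases after the start of the RefSeq transcript (GRCm38.p6). The windows are chr1:88211709-88212008 and chr1:88094751-88095050 on the plus strand, chr5:87568957-87569256 on the minus strand, and chr3:107895604-107895903 on the plus strand. Capitals mark matches, on either strand, to the core of the antioxidant response element bound by NRF2 (TGACNNNGC) and the core of the xenobiotic response element bound by the aryl hydrocarbon receptor (GCGTG).
Ugt1a1: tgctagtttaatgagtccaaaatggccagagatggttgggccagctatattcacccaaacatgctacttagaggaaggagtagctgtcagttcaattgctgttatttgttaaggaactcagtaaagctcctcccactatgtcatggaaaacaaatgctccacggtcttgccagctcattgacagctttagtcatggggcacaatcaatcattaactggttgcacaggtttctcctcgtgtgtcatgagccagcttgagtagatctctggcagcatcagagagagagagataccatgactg
Ugt1a7c: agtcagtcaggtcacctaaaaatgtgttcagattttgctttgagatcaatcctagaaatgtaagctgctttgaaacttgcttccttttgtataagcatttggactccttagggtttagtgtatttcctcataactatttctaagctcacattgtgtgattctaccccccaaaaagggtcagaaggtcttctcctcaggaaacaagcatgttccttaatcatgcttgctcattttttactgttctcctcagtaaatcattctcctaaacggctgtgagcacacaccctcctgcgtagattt
Sult1d1: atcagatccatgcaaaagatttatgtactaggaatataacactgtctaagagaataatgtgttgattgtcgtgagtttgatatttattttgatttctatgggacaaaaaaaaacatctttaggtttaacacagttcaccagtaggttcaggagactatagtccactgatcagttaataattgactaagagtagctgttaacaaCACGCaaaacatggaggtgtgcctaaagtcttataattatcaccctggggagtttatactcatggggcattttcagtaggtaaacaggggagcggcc
Gstm5: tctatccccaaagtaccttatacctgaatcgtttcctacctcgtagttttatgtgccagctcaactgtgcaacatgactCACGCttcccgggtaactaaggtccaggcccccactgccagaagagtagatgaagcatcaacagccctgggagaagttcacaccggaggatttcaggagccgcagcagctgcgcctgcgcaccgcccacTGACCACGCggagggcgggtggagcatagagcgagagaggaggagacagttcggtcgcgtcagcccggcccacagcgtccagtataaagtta

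The Ugt1a1 and Ugt1a7c windows held neither motif, and the Sult1d1 window held a xenobiotic core on the strand opposite to the gene. In the Gstm5 window an antioxidant core overlapped a xenobiotic core, and another xenobiotic core lay farther upstream. Of the 58 genes, 50 had a RefSeq window. The antioxidant core was in windows of 3 of the 50 genes, Gsta3, Gstm5 and Gstm7, against 14.0% of all 27025 genes with a window. The xenobiotic core was in windows of 9 genes, against 35.2% of all genes. These are matches of letters only and say nothing about binding.

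UGT genes. Within the Ugt1a locus on chromosome 1, where each gene has its own first exon and all share the exons that follow, the counts assigned to Ugt1a7c rose and Ugt1a1 did not pass the test. Reads that fall wholly in shared exons cannot be assigned to 1 gene. In GENCODE, Ugt1a1 has 913 exon bases that no other counted gene covers, all before the shared exons. Ugt1a7c has 917 such bases before the shared exons and another 998 beyond the 3′ end of the other genes, and reads there would be assigned to Ugt1a7c whichever first exon the transcript began with. How many of its counts came from that 3′ stretch was not measured, and the annotation used for counting is not given in the sources used here. Of the 75-base stretches of the longest transcript, 69.1% are shared with other genes for Ugt1a7c and 57.7% for Ugt1a1. Ugt1a1, which glucuronidates bilirubin, was at 197, 123, 114, 168 and 189 CPM in WT replicates 1 to 5 and at 63.9, 44.0, 149, 79.8 and 122 CPM in KSR23 replicates 1 to 5. The groups overlapped, and the log2 fold change was -0.78 (SE 0.35, adjusted p = 0.110), which became a call without KSR23 replicate 3 (-1.03, adjusted p = 0.0170). Ugt1a7c, at chr1:88095062-88220002 on the plus strand (GRCm38), was at 80.5, 46.8, 45.8, 61.5 and 78.4 CPM in WT and at 72.2, 157, 198, 108 and 175 CPM in KSR23. In KSR23, 4 of the 5 libraries lay above all WT libraries, and replicate 1 lay within the WT range. Its mean rose from 62.6 ± 16.6 to 142 ± 51.1 CPM (SD, n = 5), and the log2 difference was 1.18 (SE 0.33, adjusted p = 0.00432 by the likelihood ratio and 0.0181 by the quasi-likelihood test). The call was lost with replicates 1 to 3 alone (adjusted p = 0.233) and when the Y-linked share entered the fit (log2 fold change 0.59, adjusted p = 0.311). KSR23 replicate 1, the library within the WT range, was 1 of the 2 KSR23 libraries with 4330 or more Y-linked counts, and the part of sex in this result was not tested beyond that covariate. Of the remaining genes of the locus, Ugt1a6a, Ugt1a6b, Ugt1a2 and Ugt1a9 were at 5.25 CPM or less in every library and did not pass the test. The longest transcript of Ugt1a6a shares 100% of its 75-base stretches with Ugt1a7c. Over all its GENCODE transcripts, 2142 exon bases are covered by no other counted gene, 222 of them before the shared exons. Which of these the counting used is not known, so the counts of Ugt1a6a cannot be taken as its level. With replicates 1 to 3 alone, 0 of the 11 tested UGT genes were called by either test.

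The ratio of Ugt1a7c to Ugt1a1 separated the groups. Ugt1a7c had 40.9%, 38.0%, 40.2%, 36.7% and 41.4% of the counts of Ugt1a1 in WT replicates 1 to 5. In KSR23 replicates 1 to 5 it had 113%, 357%, 132%, 135% and 143%. Ugt1a1 had the more counts in every WT library and Ugt1a7c in every KSR23 library, KSR23 replicate 1 included. This ratio does not depend on the normalization, but it is one of assigned counts, those of the 3′ stretch of Ugt1a7c included, and not of first exons alone. The mean log2 ratio differed by 2.02 (exact permutation test, two-sided p = 0.00794, the smallest that 5 against 5 libraries allow). As a share of all UGT counts, Ugt1a7c went from 18.7% ± 0.474 to 42.1% ± 8.55 and Ugt1a1 from 47.6% ± 2.43 to 26.8% ± 6.30 (SD, n = 5), while the summed UGT level was 335 ± 92.3 CPM in WT and 335 ± 107 CPM in KSR23.

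Of the 11 tested UGT genes 2 fell (18.2%, against 8.76% of all genes), and with Ugt1a7c 3 were called (27.3%, against 18.5%). Both that fell lie in the Ugt2 cluster on chromosome 5. Ugt2a3 was at 13.0, 4.99, 9.10, 10.2 and 15.2 CPM in WT and at 1.81, 0.903, 3.70, 1.56 and 1.89 CPM in KSR23. Every KSR23 library lay below every WT library (log2 fold change -2.42, SE 0.42, adjusted p = 1.25e-06). Ugt2b5, whose family conjugates steroids, was at 39.2, 12.5, 18.6, 22.7 and 34.0 CPM in WT and at 6.93, 4.77, 6.12, 7.19 and 8.69 CPM in KSR23. These groups were also apart (-1.91, SE 0.36, adjusted p = 7.34e-06), although 30.4% of the 75-base stretches of its transcript are shared with other genes. Ugt2b34, of the same cluster, did not pass the test, at 83.2, 41.3, 37.6, 56.8 and 73.7 CPM in WT and 65.2, 69.2, 94.1, 64.3 and 87.5 CPM in KSR23 (0.38, SE 0.30, adjusted p = 0.428). Ugt2b5 had 30.3% to 49.5% of the counts of Ugt2b34 in WT and 6.50% to 11.2% in KSR23 libraries, without overlap. Ugt2b35 was at 15.4, 8.66, 9.39, 10.9 and 12.9 CPM in WT and at 6.47, 1.19, 15.3, 8.38 and 11.9 CPM in KSR23, with overlap, and was not called (-0.41, adjusted p = 0.639). Ugt2b36, at 0.806 to 5.11 CPM over the 10 libraries, was not called either (-0.19, adjusted p = 0.837).

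**Figure D1:**
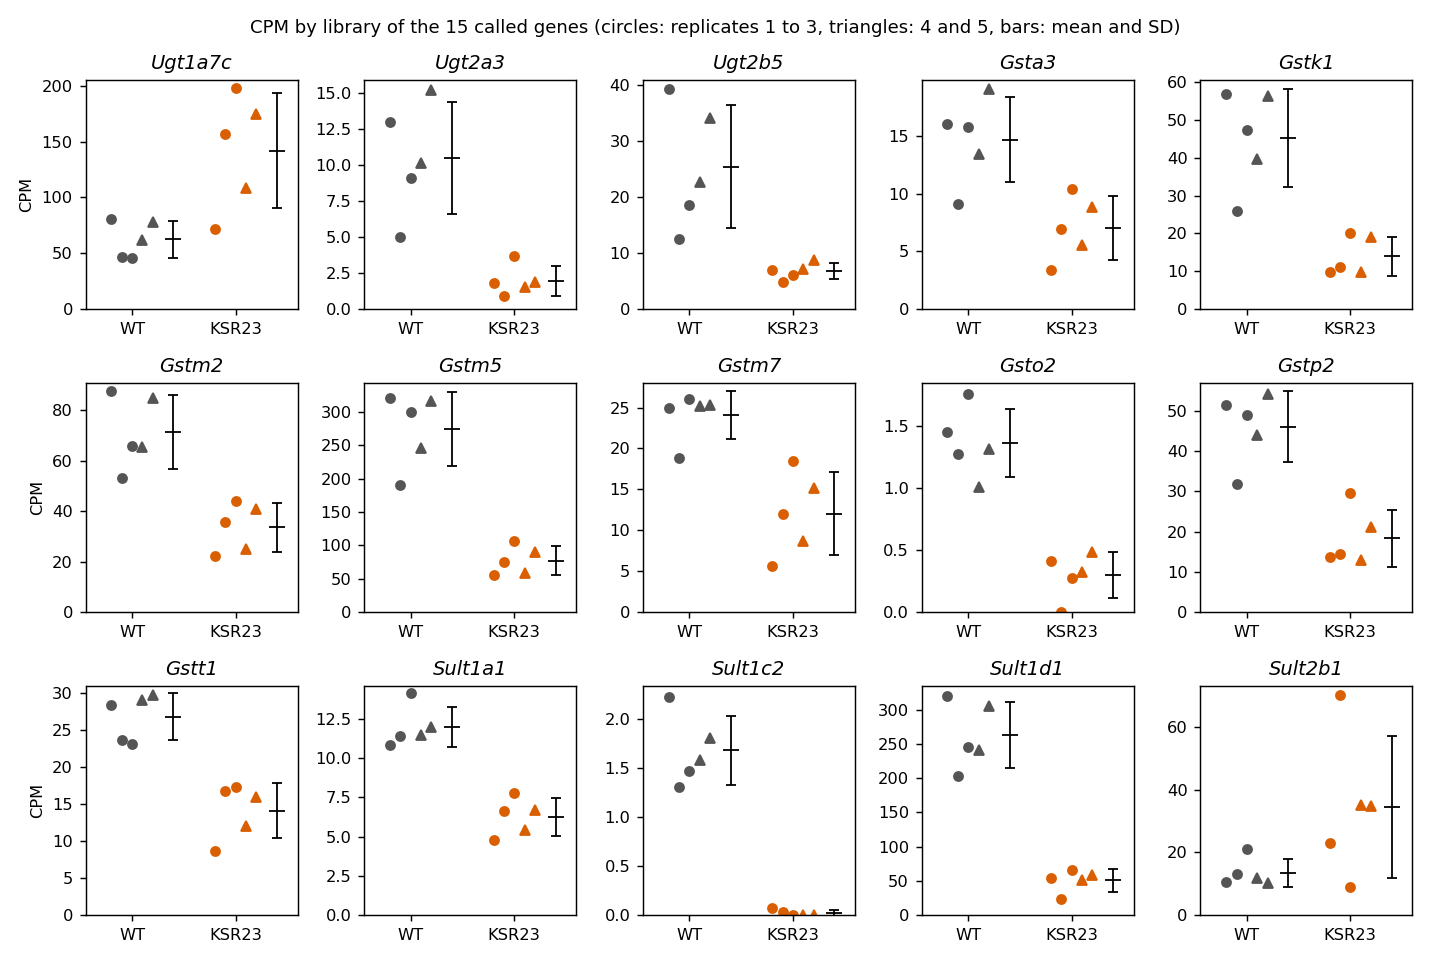
CPM (vertical axes, from 0) of each of the 15 called genes in the 5 WT (grey) and 5 KSR23 (orange) libraries, circles for replicates 1 to 3 and triangles for 4 and 5, with the mean and SD to the right of each group. The groups are apart for 12 of the 13 genes that fell and overlap for Gsta3, Ugt1a7c and Sult2b1.

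SULT genes. Of the 9 tested genes 3 were lower and 1 higher by the likelihood ratio test (44.4%, against 18.5% of all genes), and 2 were lower with replicates 1 to 3 alone. The largest decrease among the called genes was here, and Sult1d1 fell at much higher counts. Sult1d1, a sulfotransferase for catecholamines and phenols at chr5:87554645-87569027 on the minus strand, was at 321, 203, 245, 242 and 306 CPM in WT and at 53.4, 22.6, 66.1, 50.8 and 58.8 CPM in KSR23. The lowest WT library was above the highest KSR23 library by a wide margin, and the mean fell from 263 ± 48.8 to 50.3 ± 16.6 CPM (log2 fold change -2.39, SE 0.31, adjusted p = 2.13e-11). Sult1d1 was also called with replicates 1 to 3 alone (-2.40, adjusted p = 0.00262). Sult1b1, a sulfotransferase for phenols and thyroid hormones that lies beside it on chromosome 5, was at 480, 291, 397, 374 and 457 CPM in WT and at 227, 107, 512, 265 and 440 CPM in KSR23. Its groups overlapped (-0.37, SE 0.38, adjusted p = 0.562). Sult1d1 had 61.8% to 69.6% of the counts of Sult1b1 in WT libraries and 12.9% to 23.5% in KSR23 libraries (difference of mean log2 ratios -1.91, exact permutation test, two-sided p = 0.00794). KSR23 replicate 2 had the lowest value of both genes. Their share of all SULT counts went from 38.0% ± 1.23 to 12.8% ± 2.80 for Sult1d1 and from 57.6% ± 1.14 to 72.9% ± 13.4 for Sult1b1 (SD, n = 5).

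Sult1c2 was nearly lost. WT replicates 1 to 5 gave 72, 37, 40, 55 and 48 counts, and KSR23 replicates 1 to 5 gave 5, 1, 0, 0 and 0. Every WT library was well above the floor of 3 counts, and 4 of the 5 KSR23 libraries were below it. The log2 fold change was -5.84 (SE 0.74, adjusted p = 2.08e-19 by the likelihood ratio and 0.000249 by the quasi-likelihood test), and its size rests on the few counts of 2 KSR23 libraries. It was the only phase II gene called by both tests in replicates 1 to 3 alone (adjusted p = 3.21e-06 and 0.0424). Sult1a1, the main phenol sulfotransferase, fell from 10.9, 11.4, 14.2, 11.5 and 12.0 CPM to 4.75, 6.64, 7.79, 5.40 and 6.69 CPM. The groups did not overlap (-0.94, SE 0.27, adjusted p = 0.00631). In contrast Sult2b1, which sulfates cholesterol and related sterols, was at 10.6, 13.0, 21.1, 11.8 and 10.3 CPM in WT and at 22.9, 70.3, 8.98, 35.2 and 34.7 CPM in KSR23. In KSR23, 4 libraries were above all WT libraries and replicate 3 was below them (1.36, SE 0.46, adjusted p = 0.0253), a call that the quasi-likelihood test did not make (adjusted p = 0.0570) and that was lost in 6 of 10 fits without 1 library. Sult4a1, Sult5a1 and Sult6b1, all at 2.86 CPM or less, did not pass the test (adjusted p = 0.448, 0.0928 and 0.815).

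GST genes. Of the 19 tested genes 8 fell (42.1%, against 8.76% of all genes) and none was called higher by either test. With replicates 1 to 3 alone 1 was lower by the likelihood ratio and 0 by the quasi-likelihood test. They came from 6 classes: Gsta3 of the alpha, Gstm2, Gstm5 and Gstm7 of the mu, Gstp2 of the pi, Gstt1 of the theta, Gstk1 of the kappa and Gsto2 of the omega class. All 7 mu genes, on chromosome 3, had a negative log2 fold change. Gstm5, at chr3:107895821-107898686 on the plus strand, was the most abundant of them per length in WT. It was at 321, 190, 299, 246 and 316 CPM in WT and at 55.1, 74.8, 106, 58.1 and 89.5 CPM in KSR23. Its groups were far apart (-1.84, SE 0.28, adjusted p = 1.37e-08, and 0.0304 with replicates 1 to 3 alone). Gstm2 was at 87.6, 53.0, 65.8, 65.3 and 84.8 CPM in WT and at 22.1, 35.7, 44.2, 24.9 and 40.9 CPM in KSR23 (-1.09, SE 0.30, adjusted p = 0.00345). Gstm7 went from 18.9 to 26.0 CPM across WT libraries to 5.66 to 18.5 CPM across KSR23 libraries, with a small gap between the groups (mean 24.1 ± 2.92 and 12.0 ± 5.10 CPM, SD, n = 5, adjusted p = 0.0264 by the likelihood ratio test), and the call was lost in 7 of 10 fits without 1 library.

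The other 4 mu genes did not pass the test. Gstm1 was at 90.5, 61.2, 60.9, 71.2 and 79.0 CPM in WT and 25.6, 63.4, 47.5, 45.5 and 65.2 CPM in KSR23 (-0.56, SE 0.31, adjusted p = 0.211), and Gstm3 ranged from 33.4 to 90.2 CPM in WT and from 8.62 to 59.3 CPM in KSR23 (-0.70, adjusted p = 0.328). Gstm4 (-0.74, adjusted p = 0.0905) ranged from 26.6 to 47.8 CPM in WT and from 15.2 to 33.6 CPM in KSR23. Gstm6 (-0.74, adjusted p = 0.182) ranged from 25.3 to 31.3 and from 5.28 to 23.6 CPM, and its groups did not overlap although the test was not passed. KSR23 replicate 1 was the lowest of the 10 libraries for each of Gstm1, Gstm2, Gstm3, Gstm5, Gstm6 and Gstm7. Within libraries, Gstm1 had 20.4% to 32.2% of the counts of Gstm5 in WT and 44.7% to 84.7% in KSR23, without overlap (difference of mean log2 ratios 1.24, exact permutation test, two-sided p = 0.00794).

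Gstk1, the kappa enzyme of mitochondria and peroxisomes, was at 57.0, 25.8, 47.3, 39.7 and 56.2 CPM in WT and at 9.74, 11.2, 20.1, 9.86 and 19.0 CPM in KSR23. The groups did not overlap (-1.70, SE 0.34, adjusted p = 4.31e-05). Gstt1, a theta enzyme, fell from 28.4, 23.7, 23.2, 29.1 and 29.7 CPM to 8.65, 16.7, 17.2, 12.0 and 15.9 CPM (-0.93, SE 0.29, adjusted p = 0.0128), without overlap, and the call was lost in 3 of 10 fits without 1 library. The other 2 tested theta genes, also on chromosome 10, were not called. Gstt2 ranged from 71.7 to 90.0 CPM in WT and from 40.5 to 91.1 CPM in KSR23 (-0.46, adjusted p = 0.303), and Gstt3 from 78.6 to 104 and from 60.4 to 123 CPM (-0.06, adjusted p = 0.915).

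In the pi class, Gstp2 fell from 51.4, 31.9, 48.9, 43.9 and 54.3 CPM to 13.6, 14.4, 29.5, 13.1 and 21.0 CPM without overlap (-1.33, SE 0.32, adjusted p = 0.000772). Gstp1, the most abundant GST per length in WT at 817 CPM per kilobase of unshared transcript, was at 314, 195, 242, 247 and 292 CPM in WT and at 127, 219, 266, 148 and 229 CPM in KSR23 and was not called (-0.38, SE 0.28, adjusted p = 0.377). These paralogs share 57.7% and 68.2% of their 75-base stretches with other genes, so reads can be lost from both. The omega class was similarly split. Gsto2 was at 1.45, 1.27, 1.76, 1.01 and 1.31 CPM in WT and at 0.412, 0, 0.278, 0.319 and 0.480 CPM in KSR23 (-2.15, SE 0.52, adjusted p = 0.000696). Gsto1, which lies next to it on chromosome 19 and reduces dehydroascorbate, was at 301, 673, 836, 504 and 416 CPM in WT and at 637, 1360.4, 434, 778 and 751 CPM in KSR23. It was not called (0.54, SE 0.36, adjusted p = 0.330).

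In the alpha class, Gsta3 was at 16.1, 9.09, 15.7, 13.4 and 19.1 CPM in WT and at 3.41, 6.93, 10.4, 5.54 and 8.86 CPM in KSR23, with KSR23 replicate 3 above the lowest WT library (-1.07, SE 0.36, adjusted p = 0.0221). That call was lost in 6 of 10 fits without 1 library. Gsta4 ranged from 4.28 to 8.86 CPM in WT and from 1.72 to 6.46 CPM in KSR23 and was not called (-0.69, adjusted p = 0.230). Gsta2 ranged from 4.55 to 5.76 CPM in WT and from 0.725 to 4.13 CPM in KSR23, without overlap, and was not called either (-0.88, adjusted p = 0.161). Gsta1 had the largest positive log2 fold change of the 39 genes, 2.50 (SE 0.92), and just missed the threshold (adjusted p = 0.0514 by the likelihood ratio and 0.108 by the quasi-likelihood test). It had 45, 3, 6, 16 and 14 counts in WT and 1, 206, 38, 169 and 151 counts in KSR23, so that KSR23 replicate 1 was the lowest of all libraries and the other 4 KSR23 libraries were above all WT libraries on the CPM scale. Without KSR23 replicate 1 it was called higher (2.87, adjusted p = 0.000321). Since 86.3% of its 75-base stretches are shared with other genes, chiefly with its paralogs, its level is uncertain.

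**Figure D2:**
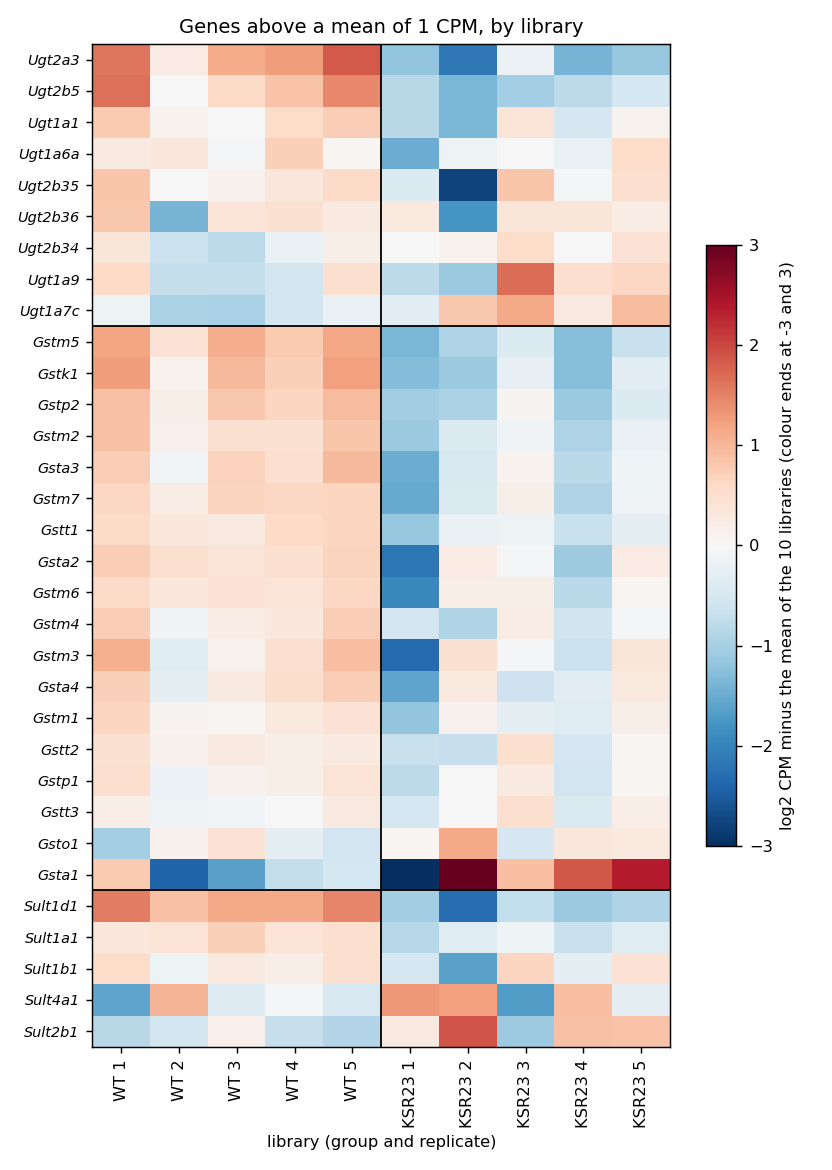
Log2 CPM of the 32 genes with a mean above 1 CPM over the 10 libraries (columns), each minus its own mean (colour, red above and blue below, ending at -3 and 3). Most GST rows are red in WT and blue in KSR23, and Gsto1, Gsta1, Ugt1a7c and Sult2b1 lean the other way. KSR23 replicate 1 is the bluest column in most GST rows.

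Pairs of related genes within a library. The ratio of the 2 most abundant genes of a subfamily needs no scaling between libraries, and it was taken for the 8 subfamilies with at least 2 tested genes, a choice made after the values were seen. In 7 of the 8 the WT and KSR23 libraries did not overlap (exact permutation tests, two-sided p = 0.00794 each, 0.00907 after adjustment over the 8 pairs). With replicates 1 to 3 alone p was 0.1 for each of the 7, the smallest that 3 against 3 libraries allow, so that none could pass. The 7 were Ugt1a7c to Ugt1a1, Ugt2b5 to Ugt2b34, Sult1d1 to Sult1b1, Gstm1 to Gstm5, Gstp2 to Gstp1, Gstt2 to Gstt3 and Gsto2 to Gsto1, and the difference of mean log2 ratios ran from -2.25 for Ugt2b5 to 2.02 for Ugt1a7c in 6 of them. Gsto2 to Gsto1 gave -3.28, which rests on KSR23 replicate 2 with 0 counts of Gsto2 and was -2.15 without that library. The Gstt2 to Gstt3 ratio differed although neither gene was called, from 75.8% to 96.2% in WT to 46.2% to 74.1% in KSR23. Gsta4 to Gsta3 overlapped (0.33, exact permutation p = 0.278). The percentage of gene pairs at large that separate in this way was not computed.

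**Figure D3:**
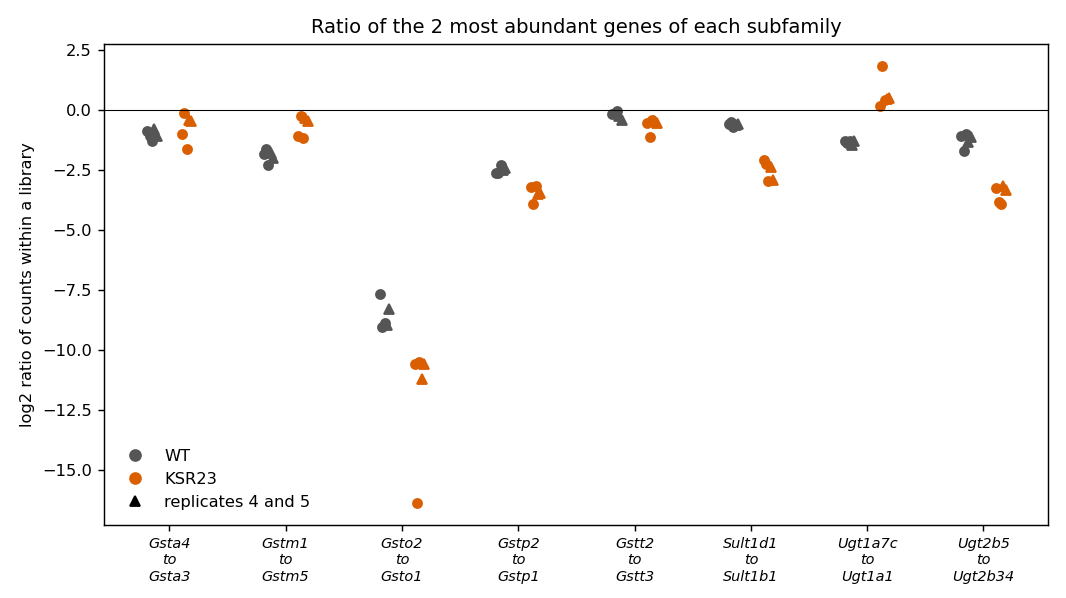
Log2 ratio of counts within each library (vertical axis, 0.5 added to each count) for the 2 most abundant genes of 8 subfamilies, WT in grey and KSR23 in orange, triangles for replicates 4 and 5. WT and KSR23 points are apart for 7 pairs and overlap for Gsta4 to Gsta3. The lowest point, Gsto2 to Gsto1 at -16.4, is KSR23 replicate 2 with 0 counts of Gsto2.

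As a description with no test, the summed GST level was 1691 ± 163 CPM in WT and 1448 ± 384 CPM in KSR23, and the summed SULT level 693 ± 120 and 404 ± 162 CPM (SD, n = 5). Per kilobase of transcript not shared with other genes, Gstp1, Gsto1, Gstm5 and Gstp2 were the most abundant of the 58 genes in WT, at 817, 493, 358 and 200 CPM per kilobase. In KSR23 Gsto1 and Gstp1 led, at 715 and 626 CPM per kilobase.

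Other genes of the same pathway were taken from 5 lists of 76 genes found in the files, 74 of them tested. Of these, 14 were higher and 11 lower by both tests (33.8%, against 18.5% of all genes), and 9 were called with replicates 1 to 3 alone by the likelihood ratio and 0 by the quasi-likelihood test. The genes that supply cofactors or cleave conjugates had 7 of 20 higher (35.0%, against 9.74% of all genes) and 1 lower, and 4 higher with replicates 1 to 3 alone. Papss2, which makes the sulfate donor PAPS, rose from 53.5 ± 9.44 to 548 ± 387 CPM (log2 fold change 3.36, SE 0.56), and the sulfate transporter Slc26a2 from 28.6 ± 4.05 to 162 ± 81.9 CPM (2.50, SE 0.37). Slc35b3, which carries PAPS into the Golgi, gave 1.49 (SE 0.25). Ugdh, which makes UDP-glucuronic acid, rose from 351 ± 86.6 to 800 ± 224 CPM (1.19, SE 0.29), and Gusb, the lysosomal β-glucuronidase, gave 1.69 (SE 0.42). For glutathione, the reductase Gsr (2.31, SE 0.37) and the γ-glutamyl transferase Ggt1 (3.20, SE 0.39) rose while Gclm, a subunit of the enzyme for the first step of synthesis, fell (-2.11, SE 0.39). Adjusted p of these 8 genes was 0.00155 or less. The catalytic subunit Gclc (0.80, adjusted p = 0.107), Papss1 (0.67, adjusted p = 0.0763) and Gss (0.58, adjusted p = 0.0962) were not called. The CPM of Papss2 and Gusb overlapped between the groups although both were called.

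Among 17 other conjugating enzymes 7 were lower (41.2%, against 8.76% of all genes) and 0 higher by both tests. In replicates 1 to 3, 3 were lower by the likelihood ratio test, where 3.36% of all genes were called in either direction. The glutathione-dependent enzymes Hpgds, a prostaglandin D synthase (-2.61, SE 0.38), Gstz1 (-1.44, SE 0.27) and the microsomal Mgst1 (-0.93, SE 0.28) fell, the last from 932 ± 83.1 to 488 ± 164 CPM. So did the glycine conjugating enzyme Glyat (-3.52, SE 0.47), from 9.64 ± 0.809 to 0.856 ± 0.803 CPM, the nicotinamide methyltransferase Nnmt (-0.84, SE 0.29) and the epoxide hydrolase Ephx1 (-0.88, SE 0.27). Inmt, an amine methyltransferase, was called lower with 0.202 ± 0.102 CPM in WT and 0 counts in all KSR23 libraries. It passed the minimum through WT alone, and WT replicate 3 had 1 count of it, below the floor of 3. The CPM of the other 6 genes did not overlap between the groups. With Inmt included, 7 of the 17 were lower without overlap (41.2%, against 6.99% of all genes). Mgst2, Mgst3, Nat2, Tpmt and As3mt were not called (adjusted p = 0.343, 0.839, 0.519, 0.140 and 0.574).

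Of 17 regulators, 3 were higher and 0 lower by both tests: the vitamin D receptor Vdr (1.63, SE 0.32), Hnf4a (1.08, SE 0.29) and Hnf4g (1.31, SE 0.36). This share, 17.6%, compares with 9.74% of all genes that were higher and 18.5% that were called in either direction. For 4 of the 17 the KSR23 libraries were all above the WT libraries (23.5%, against 7.41% of all genes). With replicates 1 to 3 alone 0 of the 17 were called by either test. Other regulators that induce genes of these families were not called, among them Nfe2l2 (NRF2) at 0.30 (adjusted p = 0.552), Ahr at -0.10 (adjusted p = 0.880), Nr1i2 (PXR) at -0.11 (adjusted p = 0.873) and Nr1i3 (CAR) at 0.30 (adjusted p = 0.531). Their usual target genes were mixed. Of 11 tested, Osgin1 was higher (1.30, SE 0.36), and Cyp3a11 (-4.62, SE 0.68) and Ces2a (-1.51, SE 0.34) were lower (27.3% called, against 18.5% of all genes, and 1 by the likelihood ratio test in replicates 1 to 3). The NRF2 targets Nqo1 and Hmox1 were not called (-0.08 and 0.55, adjusted p = 0.921 and 0.175). Of 9 transporters of conjugates, Abcc1 (1.36, SE 0.33), Abcc4 (1.42, SE 0.34) and Slco4a1 (2.06, SE 0.50) were higher and Abcc2, the apical exporter of glucuronides and glutathione conjugates, was lower (-1.35, SE 0.34), from 67.1 ± 16.0 to 26.2 ± 9.13 CPM. These were 44.4% of the list, against 18.5% of all genes, and 1 of them was called by the likelihood ratio test in replicates 1 to 3. Abcg2 was not called (0.28, adjusted p = 0.545).

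**Figure D4:**
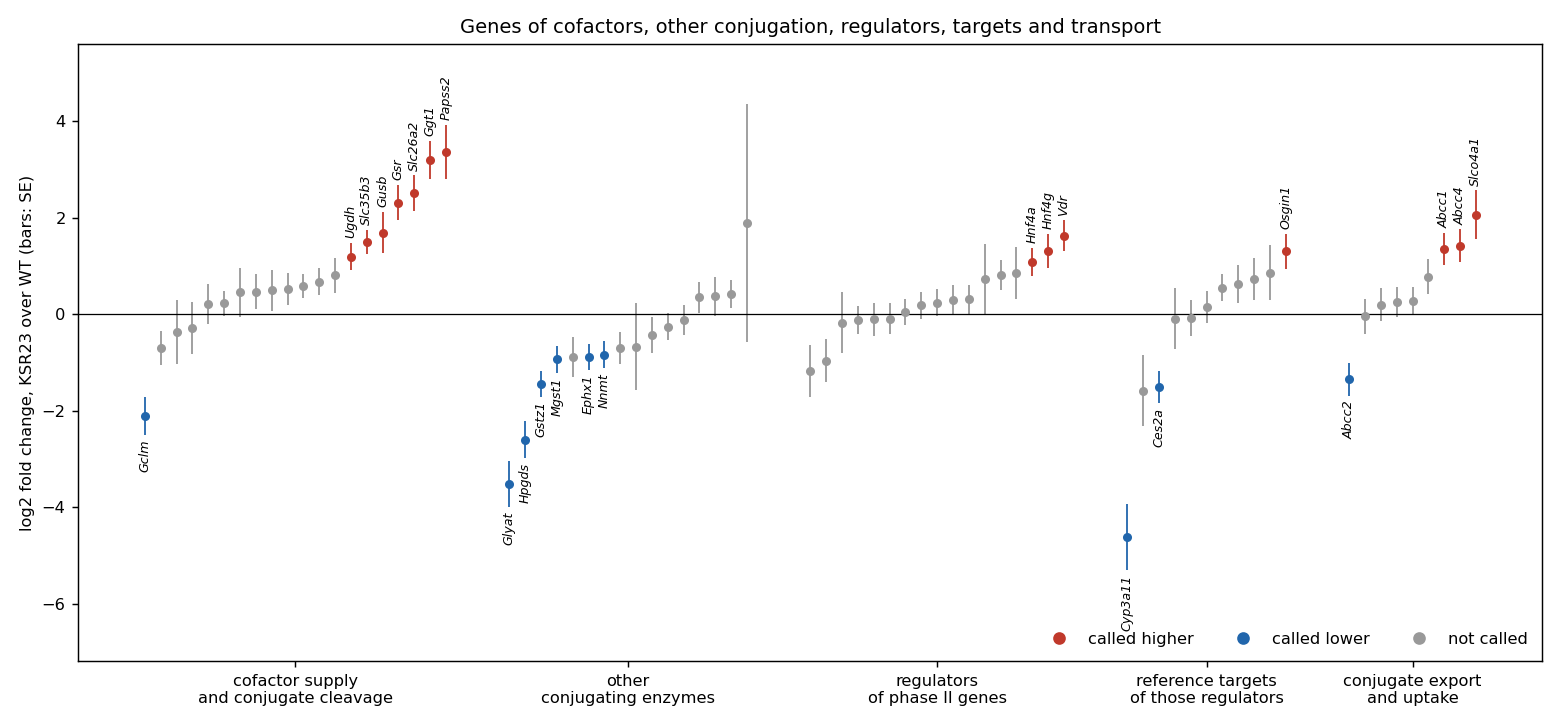
Log2 fold change of KSR23 over WT (vertical axis) with its standard error for 73 of the 74 tested genes of 5 related lists, ordered by fold change within each list. Red and blue points with names are called higher or lower. Inmt, with no count in KSR23, is not drawn. The cofactor genes lean up, with Papss2 and Ggt1 above 3, and the other conjugating enzymes lean down.

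Markers of other cells moved with these results in part. Hepatocytes also express many phase II genes. Of 7 listed hepatocyte markers, 4 (Alb, Serpina1a, Serpina1c and Ttr) were lower by the likelihood ratio test, against 8.76% of all genes. The 7 summed to 1123 to 1875 CPM in WT and 322 to 1475 CPM in KSR23. Cps1, which enterocytes express as well, was the most abundant of the 7 and was not called (732 and 909 CPM on average). Without it the other 6 summed to 438 to 948 CPM in WT and 10.3 to 74.7 CPM in KSR23, with Ttr going from 484 to 35.1 CPM on average. Alb itself was at 1.98, Ahsg at 1.66 and F2 at 0.794 CPM in WT on average. The quasi-likelihood test did not call Alb lower (adjusted p = 0.0937). Whether the counts of Ttr and Serpina1a came from hepatocytes was not tested. All 5 tested of 7 pancreatic acinar markers were lower by the likelihood ratio test, against 8.76% of all genes. The quasi-likelihood test did not call Cpa1 or Cel (adjusted p = 0.0595 and 0.0536). Prss2 passed the minimum through WT alone, with at most 1 count in a KSR23 library. The 7 summed to 99.0 to 218 CPM in WT and 5.87 to 15.6 CPM in KSR23, and Amy2a5 had no count in any library. Secretory epithelial markers were higher for 2 of 6 genes, against 9.74% of all genes (summed levels 941 to 1394 CPM in WT and 1426 to 2633 CPM in KSR23). By the likelihood ratio test 3 of 10 enterocyte markers were higher and 1 lower. Of the remaining lists, 1 marker each was lower for mesenchyme, smooth muscle and endothelium, and 1 leukocyte marker was higher. None of 5 enteric nerve markers was called. Of all genes, 9.74% were higher and 8.76% lower, and 1 call in a list this short cannot be told from those shares. The part of these cells in the changes of the phase II genes was not tested.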

How the data were processed

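Total RNA of P5 jejunum was amplified with an oligo-dT low-input kit and sequenced as single 75-base reads without molecular identifiers. The authors aligned reads with TopHat2 2.1.0 to mm10 and counted them per gene symbol with HTSeq (0.6.1p1 in the submitters' processing notes) in its strict intersection mode. The deposited counts are whole numbers per gene and are not normalized. Reads without a unique alignment (20.3% to 26.5% of the reads in a file), and those not assigned to a gene, were left out of totals. The strand setting is not given in the sources used here, so sense and antisense reads may not be told apart.

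All genes that reached 5 counts in any of the 10 libraries were fitted with edgeR 4.0.16 (R 4.3.3), TMM factors and the gene-wise likelihood ratio test that the study used, adjusted by Benjamini-Hochberg over all tested genes and called below 0.05. Fold changes are KSR23 over WT and SE come from the fitted model. CPM are counts per 1000000 assigned reads, with each total multiplied by its TMM factor. The quasi-likelihood test of edgeR is given beside it, since the likelihood ratio test is the less strict. DESeq2 1.42.0, other size factors, other count minimums, left-out libraries, a replicate block and a Y-linked covariate were alternatives. Ratios of pairs were tested by exact permutation (scipy). The tests across genes were tested on simulated data. The study calls the libraries biological replicates but the labels do not say that each is 1 animal, so p-values measure the spread between these libraries. Floors cover counting error only. Shared 75-base stretches and positions were computed from GENCODE M21 (GRCm38) transcripts, and levels per length used stretches not shared with another gene. Named genes were all genes of the rule: those called with 5 or more counts in every library of at least 1 group, and those not called with a mean above 10 CPM, have values by library or ranges, and the rest ranges, counts or their test only. The members and the lists were chosen with earlier results of these data known. The listed gene Sts was not analysed here, and some listed items are not reported here.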

Additional observations from a re-analysis of the deposited data

Results flagged for a closer look

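On the log2 CPM scale, 3 of 54 groups of 5 libraries had 1 library far from the other 4. Chance alone flags about 1 in 20 such groups, or 2.7 of 54. Gstm7 was lowest in WT replicate 2, at 4.24 (534 counts), with the next library at 4.64. Gsto2 was lowest in KSR23 replicate 2, at -4.20 (0 counts), with the next at -1.59. Sult1d1 was lowest in KSR23 replicate 2, at 4.50 (700 counts), with the next at 5.67. Without that library the log2 fold change of Sult1d1 was -2.15, the smallest decrease of the 10 fits that leave out 1 library, and it stayed called in all of them.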

How the results depend on the processing

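The 15 called phase II genes kept their direction in each alternative in which they were fitted. Gsto2 and Sult1c2 were not fitted where 5 counts in every library were required, nor Ugt1a7c, Ugt2b5 and Gstp2 in the fit without genes that share many stretches. The count of higher genes, 2, became 1 by the quasi-likelihood test, 0 with replicates 1 to 3 by either test, 0 with the Y-linked covariate (where 18 genes were lower), and 1 without genes that share 20% or more of their stretches, a set that leaves out Ugt1a7c. It ranged from 1 to 3 when 1 library was left out. The 13 lower genes became 3 (likelihood ratio) and 1 (quasi-likelihood) with replicates 1 to 3, and 10 to 16 with 1 library left out. The 25 called related genes became 9 and 0 with replicates 1 to 3, and 23 to 28 with 1 library left out. Of the 15 genes, 11 stayed called whichever library was left out. Sult2b1 was lost without WT replicate 1, 2, 4 or 5 or KSR23 replicate 2 or 5 (adjusted p up to 0.107), Gsta3 without WT replicate 3, 4 or 5 or KSR23 replicate 1, 2 or 4 (up to 0.0944), Gstm7 without WT replicate 1, 3, 4 or 5 or KSR23 replicate 1, 2 or 4 (up to 0.112) and Gstt1 without WT replicate 4 or 5 or KSR23 replicate 4 (up to 0.0689). Of the genes not called, Gsta1 was called without WT replicate 1 or KSR23 replicate 1 or 3 (adjusted p of 0.0168, 0.000321 and 0.0397), Sult5a1 without KSR23 replicate 5 (0.0137), and Ugt1a1, Gstm4 and Gstt2 without KSR23 replicate 3 (0.0170, 0.0184 and 0.0468). The quasi-likelihood test, on all genes, called 2711 where the likelihood ratio test called 3262. With library totals alone 1414 genes were higher and 1858 lower, against 1717 and 1545.

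With the replicate block, 0 genes were higher, 10 lower and 22 related genes called, and Ugt1a7c (adjusted p = 0.0504), Sult2b1 (0.161), Gsta3 (0.0538), Gstm7 (0.0530) and Gstt1 (0.0739) were no longer called. Same-numbered libraries correlated at -0.69, 0.37, -0.62, 0.28 and 0.41 and only replicate 4 matched its own number best, so the samples share only a number.

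Uncalled genes that changed sign were Gstt3 (0.0874 and 0.0875 with replicates 1 to 3 by the likelihood ratio and quasi-likelihood test, -0.22 to 0.10 with 1 library left out), Sult6b1 (-0.12 with the replicate block, -0.30 with the Y-linked covariate, -0.57 to 0.79 with 1 library left out), Ugt1a9 (-0.0039 with the Y-linked covariate), and Ugt1a2 (-0.83 to 0.11) and Ugt2b36 (-0.37 to 0.10), both with 1 library left out. For all of these the cause was not tested. For the ratios of pairs, alternatives were chosen after seeing the data. Leaving out libraries cannot make groups overlap that are apart, so it is no check of the 7 separated pairs. Gsta4 to Gsta3, the pair that overlapped, differed without KSR23 replicate 3 (0.55, exact permutation p = 0.0476). Depth limits what can be said of the 19 genes below the minimum.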
